A study of Drosophila melanogaster with 24 samples.

Results

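The change in the fat body of tumour-bearing larvae between day 5 and day 8 after egg laying was read from 8 of the 24 libraries of the series, 4 of tumour day 8 and 4 of tumour day 5. Both groups carried the genotype C855a-Gal4/UAS-scrib-RNAi, in which the epithelial driver C855a-Gal4 runs RNA interference against scrib. That gene sets the apical-basal polarity of epithelia, and wing discs that lose it overgrow as tumours. Such larvae do not pupate and live on as giant larvae. They differed in the labels by the time point alone, so that tumour growth and the age of the larva cannot be told apart, and no control group of day 8 was used here. Each library came from the dissected fat bodies of 50 larvae grown from eggs collected within 3 h. The whole series adds tumour libraries of days 4 and 11 and control libraries (same driver, with a control line) of days 4 and 5. These 16 libraries entered the statistical model, and their levels are given only beside those of days 8 and 5. No label says whether the pools of 1 group were raised as separate cultures, and p-values therefore measure the spread between the pools, which may be technical.

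The fat body takes the place of liver and adipose tissue in insects. It makes and stores fat and glycogen, secretes storage hexamerins and lipoproteins into the blood of the larva, and is the main source of the antimicrobial peptides released when the Toll and Imd pathways are switched on. Ecdysone pulses at the end of larval life turn it from storage to breakdown, and in larvae with growing disc tumours its stores are known to waste.

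Total counts were 16074877 to 18562382 in the day 8 libraries and 17069241 to 21711263 in the day 5 libraries. Levels are CPM, a gene's counts relative to its library's total, scaled with TMM factors (trimmed mean of M-values). The factors, by which the totals are multiplied, were 1.28 to 1.44 in the day 8 libraries and 0.873 to 1.07 in the day 5 libraries. They lower the day 8 levels against those of day 5, so that the direction of small changes depends on this scaling. A gene was called where the quasi-likelihood test of edgeR gave a Benjamini-Hochberg adjusted p under 0.05 over the 8707 genes that passed a low-count filter. Changes are log2 fold changes, day 8 over day 5, with their standard error. The fat body label was checked on 12 marker genes, whose summed level was 68446 to 132062 CPM at day 8 and 205295 to 289343 CPM at day 5. Most of the mean sum on both days was Lsp1beta. Of the 12 genes 9 were called lower and 1 higher, so that the sum is not independent of the results below. Its fall does not by itself measure the amount of fat body. Other tissues were present in single libraries. Gut markers (digestive proteases, lysozymes and amylases) summed to 364 CPM in replicate 1 of day 8 and 35.7 to 60.7 CPM in the other 3, and to 492 and 349.8 CPM in replicates 1 and 2 of day 5 against 23.1 to 32.0 CPM in the other 2. Testis markers summed to 699 CPM in replicate 1 of day 5 and to 18.8 CPM or less in the 7 other libraries. Replicate 3 of day 5 held the most RNA of cuticle (59.4 CPM), trachea (85.2 CPM) and muscle (414 CPM). Markers of salivary gland reached 204 CPM in replicate 1 of day 8 and at most 1.77 CPM in the other 3, and to 82.5 and 247 CPM in replicates 2 and 4 of day 5 against 0.558 and 0.83 CPM in replicates 1 and 3. The part of these tissues in the results below was not tested and counts are also given without replicates 1 and 2 of day 5, which leaves 2 libraries on that side. Of those 2, replicate 3 held the most cuticle, trachea and muscle RNA of day 5. Replicate 4 held the most salivary gland RNA, so that this fit is not free of other tissues. Of 18 muscle markers, 6 were called lower with all libraries and 13 in that fit. Calls can also be lost there because the day 5 group is smaller.

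**Figure D1:**
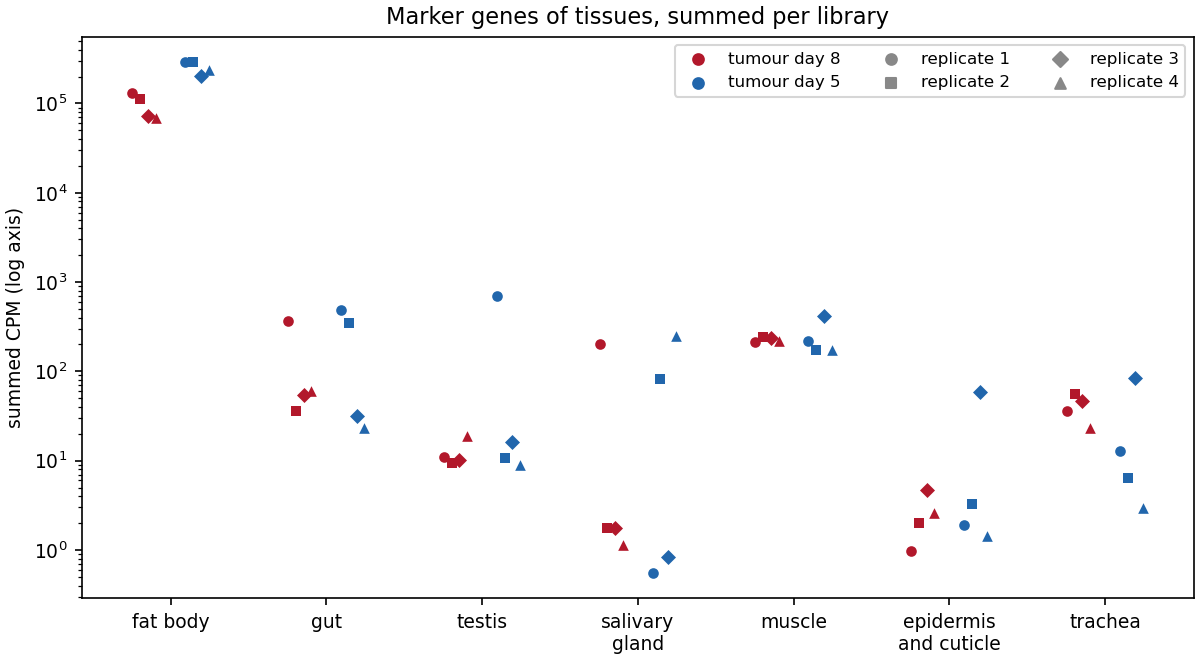
Summed level (CPM, log axis) of the marker genes of 7 tissues in each library, with tumour day 8 left of tumour day 5 and symbols for replicates 1 to 4. Fat body markers lie far above the others in all 8 libraries, gut markers reach 492 CPM and testis markers 699 CPM in replicate 1 of day 5.

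Of the 8707 genes tested, 2270 (26.1%) were called, 1047 (12%) higher and 1223 (14.0%) lower at day 8, and the median change of all genes was 0.01. In 2649 genes (30.4%) the 4 day 8 libraries did not overlap the 4 day 5 libraries. These shares are the background for the counts of list members below, and a count near them says nothing particular of a list. Among the called genes 768 changed at least 2-fold, 492 higher and 276 lower. Without replicates 1 and 2 of day 5, 1193 of 9109 genes were called, 526 higher and 667 lower. Of the 2270 genes, 1114 were called in both fits and 2262 had the same direction in both. The fits share all day 8 libraries and 2 of day 5, so that the shared direction was largely built in and says little of other tissues.

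The 12 genes that rose most, among those of at least 20 CPM whose libraries did not overlap and that were also called without replicates 1 and 2 of day 5, included a lysosomal protease, immune peptides and an ecdysone-induced transcription factor. CtsL3 (FBgn0037396; chromosome 3R, 6025826 to 6027238, BDGP6.54 annotation, as all positions here), a cathepsin L-type cysteine protease by its name, had 251, 310.4, 445 and 681 CPM in the day 8 libraries and 2.58, 2.62, 6.07 and 5.57 CPM in the day 5 libraries. The lowest day 8 library lay far above the highest day 5 library, a change of 6.64 ± 0.42 (edgeR adjusted p = 1.9e-09). The other 11 of the 12 genes at this end were the Bomanins BomT2 and BomS2, the antimicrobial peptide genes Dro, DptA and Mtk, Eip93F, CG9812, CG14963, CG33462, CG4650 and FBgn0028519, an identifier with no symbol in the annotation used. CG9812 had 47.8, 18.1, 76.3 and 163 CPM at day 8 and 0.203, 0.269, 3.42 and 0.765 CPM at day 5, a change of 5.99 ± 0.78 that came to 7.48 without replicate 3 of day 5 and to 5.30 without replicate 4 of day 8. CG14963 changed by 5.10 ± 1.38 and by 7.14 without replicate 1 of day 5, and FBgn0028519 by 4.80 ± 0.81 and by 5.85 without replicate 3 of day 5.

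At the other end, 3 of the 12 genes that fell most belong to fat synthesis or storage. These were Lsp1alpha, FASN1 and Agpat2, an enzyme of phospholipid and triacylglycerol synthesis by its name. Agpat2 (FBgn0026718; chromosome 2L, 8449691 to 8463994) had 3.47, 3.16, 2.72 and 4 CPM at day 8 and 48.5, 46, 54.3 and 65.7 CPM at day 5, with no overlap, and fell by 4.00 ± 0.29 on the log2 scale (edgeR adjusted p = 4.75e-09). The yolk protein gene Yp3 fell to 2.03 ± 1.05 CPM at day 8, against 28.1 ± 3.26 CPM at day 5 (SD, n = 4 each), and sro, a short-chain dehydrogenase known from ecdysone synthesis, to 1.96 ± 0.324 CPM against 39.6 ± 5.4 CPM. Genes that overlap a neighbour on the other strand, here sro (Rnb), CG3348 (Hmu), CG9812 (CG30411) and CG14963 (CG32278), and below NimC2, ScsbetaA and BomS4, may share reads with it, since the strand setting of the counting is not given in the sources used here. Mtk overlaps Stacl on its own strand. The other genes of the 12 were CG3348, CG10962, CG3609, CG8665, CG1774, Tina-1 and Ugt35A1, with changes between -4.34 and -2.49. Tina-1 changed by -2.67 ± 0.39 and by -3.35 without replicate 1 of day 8.

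**Figure D2:**
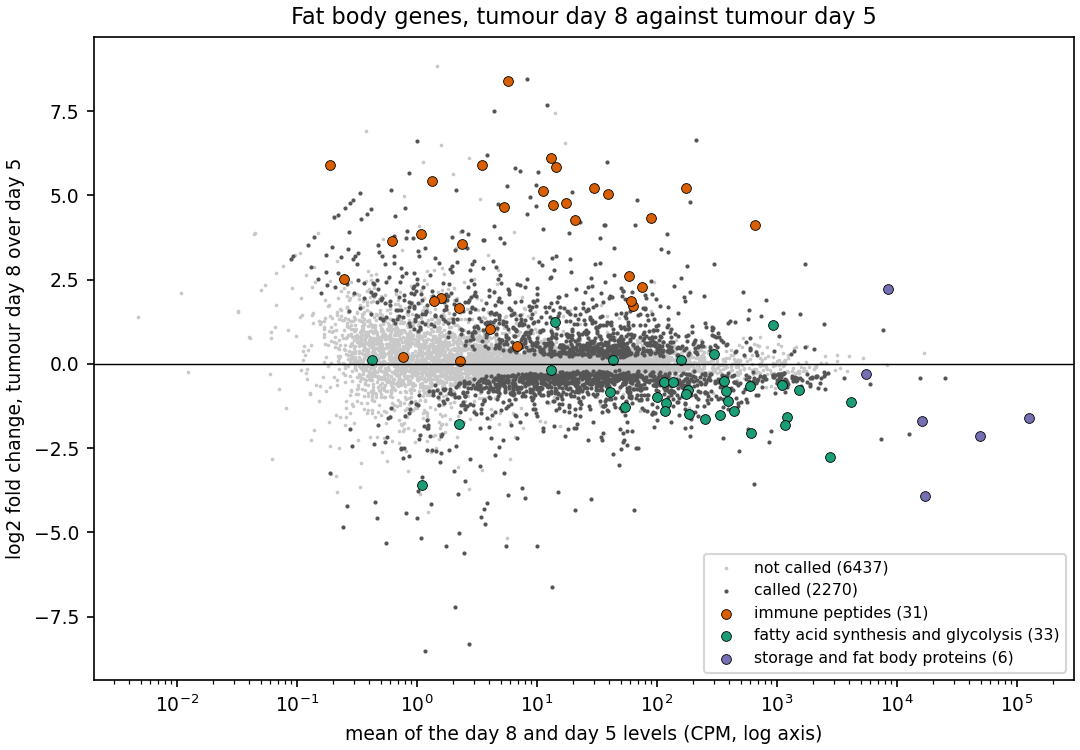
Log2 fold change of each of the 8707 genes, tumour day 8 over tumour day 5, against the mean of the 2 group levels (CPM, log axis), with 2270 called genes in dark grey. Immune peptides (orange) lie mostly above 0, genes of fatty acid synthesis and glycolysis (green) and storage proteins (violet) mostly below, and fitted changes of genes near 0 CPM in 1 group depend on the fit's prior.

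Many immune peptide genes rose. Bomanins and Daisho peptides are short secreted peptides made in the fat body under Toll control. Of 15 genes tested on a list of these and of Bara genes, 13 were called higher and none lower. Their median change was 5.05 against 0.01 for all genes. Of 16 antimicrobial peptide genes 7 were called higher and none lower, with a median of 2.44. Without replicates 1 and 2 of day 5 the counts were 7 on the list with the Bomanins and 6 of the antimicrobial peptides, with medians of 4.95 and 5.23.

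Of the Bomanins, 10 lie in a cluster on chromosome 2R, from 18381393 to 18390629. BomT2 (FBgn0040735; chromosome 2R, 18388995 to 18389443) had 13.5, 31.7, 34.3 and 24.4 CPM at day 8 and 0.253, 0.336, 0.57 and 0.328 CPM at day 5. All 4 day 8 libraries lay above all day 5 libraries, a change of 6.09 ± 0.62 (edgeR adjusted p = 3.64e-07), and the lowest value when 1 library was left out was 5.93. BomS3 had 175, 703, 249 and 246 CPM at day 8 and 6.94, 7.92, 14.2 and 7.92 CPM at day 5. Its change was 5.21 ± 1.20 (edgeR adjusted p = 0.00303), and the call ended without replicates 1 and 2 of day 5 (edgeR adjusted p = 0.0645). It was 4.59 without replicate 2 of day 8. Replicate 2 was the highest day 8 library for 9 of the 10 Bomanins of this cluster, BomT2 being the exception. BomS4 was read only at day 8, with 35 counts over the 4 libraries against 0, at least 8.96-fold higher when 3 counts are taken over the day 5 group. BomS1 and BomT1 were called at 4.72 and 3.65, but both calls ended without replicate 2 of day 8 (2.85 and 2.18) and without replicate 3 or 4 of day 5, and that of BomS1 also without replicate 1 or 2 of day 5. BomT1 changed by 4.82 without replicate 2 of day 5.

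Among the antimicrobial peptides, Drs (FBgn0283461; chromosome 3L, 3369556 to 3369942), which encodes the antifungal peptide drosomycin, a target of Toll, had 717, 1631, 1357 and 1291 CPM at day 8 and 47.7, 50.6, 114 and 77.8 CPM at day 5. The groups did not overlap and the change was 4.11 ± 0.68 (edgeR adjusted p = 0.000126). Diptericin A, an Imd target, had 57.4, 469, 78.4 and 79.2 CPM at day 8 and 17.3, 13.8, 1.45 and 1.8 CPM at day 5. Replicate 2 of day 8 was far above the rest, and at day 5 replicates 1 and 2, the libraries with the gut markers, were above the other 2. The change of DptA was 4.32 ± 1.00, 3.06 without replicate 2 of day 8, and 6.71 without replicates 1 and 2 of day 5 (edgeR adjusted p = 0.0031, 0.017 and 0.0045). Dro, the gene of drosocin, changed by 5.23 ± 0.87 and by 3.78 without replicate 2 of day 8, and Mtk, the gene of metchnikowin, by 4.26 ± 0.89 and by 3.16 without that library. BomS2 changed by 5.05 ± 1.09 and by 4.46 without it. Def, the gene of defensin, was at 0.6, 39.1, 0.388 and 1.14 CPM at day 8 and 0.659, 0.269, 0.207 and 0.437 CPM at day 5, so that its call rested on replicate 2 of day 8 and its change was 0.84 without it. DptB changed by 2.60 ± 0.92, a call that ended without replicate 2 (1.84) or 4 of day 8 or replicate 3 or 4 of day 5. Drsl5, a gene related to Drs, held 1140 counts at day 8 and 2 at day 5, a ratio of 438 with a 95% counting interval of 121 to 3620.

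**Figure D3:**
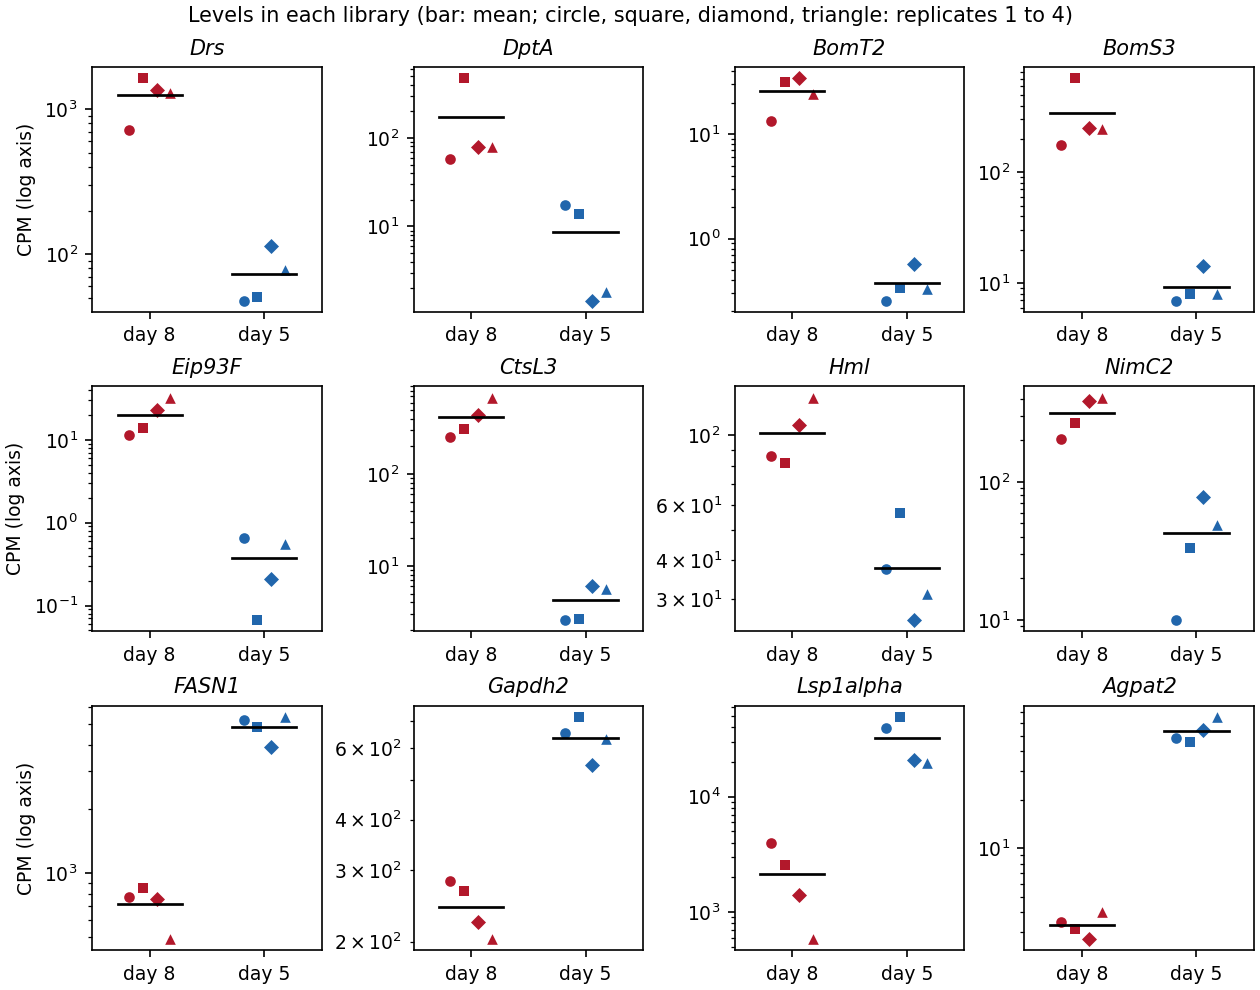
Level (CPM, log axis) of 12 genes in each library, tumour day 8 left of tumour day 5, with symbols for replicates 1 to 4 and a bar for the mean of 4 libraries. The 8 genes of the upper 2 rows are higher in all 4 day 8 libraries than in any day 5 library, and the 4 genes of the bottom row are lower.

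Pathway genes upstream of these peptides had medians closer to that of all genes. Of 18 Toll pathway genes, 5 were called higher and 3 lower, with a median of 0.15, and without replicates 1 and 2 of day 5 the counts were 4 and 2. SPE, the protease that cleaves the Toll ligand, rose to 120.2 ± 25.3 CPM at day 8, against 49 ± 15.6 CPM at day 5 (SD, n = 4 each), a change of 1.29 ± 0.20 (edgeR adjusted p = 4.55e-05). The receptor gene Tl changed by 0.85 ± 0.16, and Dif and dl, which encode the transcription factors of the pathway, by 1.15 ± 0.26 and 0.72 ± 0.20. The call of dl ended without replicates 1 and 2 of day 5 (edgeR adjusted p = 0.168) and without replicate 4 of day 8 (0.45). The ligand gene spz fell by 0.40 ± 0.07 on the log2 scale, and the recognition protein gene GNBP1 by 0.46 ± 0.11. Of 23 genes of the Imd pathway and of peptidoglycan recognition, 4 were called higher and 1 lower, and 3 and 1 without those libraries, while none was called lower without replicate 2 or 4 of day 5. PGRP-SC2, an amidase that breaks down peptidoglycan, had 3.9, 19.6, 7.38 and 6.73 CPM at day 8 and 2.79, 2.08, 1.81 and 2.19 CPM at day 5, a change of 2.08 ± 0.52 that was 1.43 without replicate 2 of day 8. Tab2 and Tak1, partners in Imd signalling, rose by 0.70 and 0.32, and the call of Tak1 ended without replicates 1 and 2 of day 5.

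A list of JAK/STAT pathway genes and Turandots had 14 tested members, of which 7 were called higher and 1 lower, with a median of 0.34, and 4 and 0 without replicates 1 and 2 of day 5. Turandots are secreted stress proteins of the fat body, and all 5 that were tested were called higher. TotA had 8542, 9501, 10283 and 12742 CPM at day 8 and 5924, 6228, 3928 and 4559 CPM at day 5, with no overlap and a change of 0.99 ± 0.27 (edgeR adjusted p = 0.00883). TotB had 17.3, 25.4, 28.7 and 64.9 CPM at day 8 and 4.11, 3.16, 3.42 and 5.08 CPM at day 5, a change of 3.11 ± 0.32. TotC changed by 0.90 ± 0.27, and its call ended without replicate 4 of day 8 (0.72) or replicate 3 of day 5 (0.77), and without replicates 1 and 2 of day 5 (edgeR adjusted p = 0.071). Socs36E, a feedback inhibitor and target of the pathway, had 58.3, 61.3, 54.6 and 96.5 CPM at day 8 and 34.8, 27.9, 44.3 and 23.1 CPM at day 5, a change of 1.06 ± 0.25, and the thioester protein gene Tep2 had 2280.1 ± 571 CPM at day 8 and 824 ± 16.5 CPM at day 5 (SD, n = 4 each), a change of 1.47 ± 0.13. Tep1 changed the other way, by -0.81 ± 0.27, and its call held in 2 of the 8 fits with 1 library left out, those without replicate 2 of day 8 or replicate 1 of day 5.

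Haemocytes, the blood cells of the larva, can stay on the dissected tissue, and some of their markers were also higher at day 8. Of 22 haemocyte markers tested, 9 were called higher and 2 lower, with a median of 0.58, and 9 and 0 without replicates 1 and 2 of day 5. None of the list's genes was at 0 in all 8 libraries. Its summed level was 10741 to 11468 CPM at day 8 and 9936 to 11727 CPM at day 5, so that the sum over all members overlapped between the groups. The levels of Hml and NimC2, given below, were a small part of that sum, which therefore says little of them. Hml, the gene of hemolectin and a defining plasmatocyte marker, had 85.7, 81.7, 108 and 132 CPM at day 8 and 37.4, 56.5, 25.8 and 31.1 CPM at day 5, with no overlap and a change of 1.44 ± 0.25 (edgeR adjusted p = 0.000249). Pxn, NimC1, eater and He changed by 1.49, 1.22, 1.61 and 1.74. In such pooled tissue, more cells of a type and more RNA per cell cannot be told apart, and the part of haemocytes in the immune results was not tested. NimC2 had 204, 267, 383 and 407 CPM at day 8 and 10, 33, 77.9 and 49.1 CPM at day 5, a change of 2.89 ± 0.56, and stood at 4115 ± 679 CPM in control day 5. PPO1, the prophenoloxidase of crystal cells, changed by -1.11 ± 0.36 with overlapping groups, and its call ended without replicate 2, 3 or 4 of day 8 or replicate 2 of day 5. The matrix protein gene Tig, the other member called lower, changed by -0.27 ± 0.09, a call that ended without replicate 1, 2 or 4 of day 8 or replicate 1 or 2 of day 5.

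Of 15 basement membrane genes, 6 were called higher and none lower, with a median of 0.25, and 5 and 0 without replicates 1 and 2 of day 5. Papilin (Ppn) rose to 109.8 ± 20.4 CPM at day 8, against 49.4 ± 6.92 CPM at day 5 (SD, n = 4 each), a change of 1.15 ± 0.22 (edgeR adjusted p = 0.000585), and nidogen (Ndg) and the laminin chain gene LanB2 changed by 0.74 ± 0.18 and 0.50 ± 0.13. The list shares Pxn with the haemocyte markers. Mmp2, a matrix metalloproteinase known to free fat body cells at metamorphosis, had 4.58, 13.8, 14.8 and 29.6 CPM at day 8 and 0.558, 0.403, 1.3 and 0.546 CPM at day 5. The groups did not overlap and the change was 4.45 ± 0.55 (edgeR adjusted p = 4.17e-06). Mmp2 stood at 73.6 ± 16.9 CPM in control day 5.

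Most storage protein genes fell. Of 6 genes on the list of storage and fat body proteins, 4 were called lower and 1 higher, with a median of -1.64, and 4 and 0 without replicates 1 and 2 of day 5. Lsp1alpha (FBgn0002562; chromosome X, 12490291 to 12492982), a subunit of larval serum protein 1, had 3972, 2556, 1411 and 582 CPM at day 8 and 39584, 49387, 20682 and 19676 CPM at day 5. All day 8 libraries were below all day 5 libraries, with replicate 1 the highest and replicate 4 the lowest of day 8, and the change was -3.92 ± 0.55 (edgeR adjusted p = 1.8e-05). Lsp1beta, another subunit of that protein, fell to 62835 ± 26596 CPM at day 8, against 190324 ± 35746 CPM at day 5, and Lsp1gamma to 18328 ± 3379 CPM against 80312 ± 25314 CPM (SD, n = 4 each). Their changes were -1.60 ± 0.26 and -2.13 ± 0.19. Fbp2 changed by -1.69 ± 0.37, and Lsp2, a hexamerin of the late larva, was not called, with 4985 ± 397 CPM at day 8 and 6138 ± 655 CPM at day 5. The member called higher was Fbp1, the receptor that takes storage proteins back into the fat body, with 10032, 13280.0, 16381 and 15697 CPM at day 8 and 949.6, 4436, 2599.8 and 3980.0 CPM at day 5. The groups did not overlap, the change was 2.21 ± 0.61 (edgeR adjusted p = 0.011), and the call ended without replicates 1 and 2 of day 5 (2.07, edgeR adjusted p = 0.0852).

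Most genes of fatty acid and triacylglycerol synthesis fell. Of 18 tested, 13 were called lower and none higher, with a median of -1.21, and 11 and 0 without replicates 1 and 2 of day 5. FASN1 (FBgn0283427; chromosome 2L, 3056598 to 3068177), the fatty acid synthase of the fat body, had 770.3, 851, 750.4 and 489 CPM at day 8 and 5233, 4831, 3927 and 5425 CPM at day 5. No library overlapped and the change was -2.76 ± 0.24 (edgeR adjusted p = 4.77e-08). Acetyl-CoA carboxylase, which makes the building block for the synthase, was also called lower. The acetyl-CoA synthetase gene AcCoAS fell to 512 ± 75.1 CPM at day 8, against 1814 ± 165 CPM at day 5 (SD, n = 4 each). Changes were -1.83 ± 0.16 for AcCoAS, -1.38 ± 0.22 for ATP citrate lyase (ATPCL) and -1.58 ± 0.17 for malic enzyme (Men), a source of NADPH. The stearoyl-CoA desaturase gene Desat1 changed by -1.14 ± 0.22, lipin (Lpin), an enzyme of triacylglycerol synthesis, by -1.65 ± 0.16, and SREBP, the transcription factor that drives these genes, by -0.89 ± 0.08.

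Genes of lipid breakdown and lipid droplets were called lower more often than all genes (14.0%), but their median lay nearer to that of all genes than the median of the synthesis genes. Of 18 tested, 10 were called lower and 1 higher, with a median of -0.27, and 5 and 0 without replicates 1 and 2 of day 5. The gene dob, a lipase related to brummer, had 52.5, 42.1, 34.7 and 33.1 CPM at day 8 and 143, 156, 143 and 158 CPM at day 5, far apart, with a change of -1.89 ± 0.11 and the smallest adjusted p of the genes named here (edgeR, 5.32e-10). The perilipin gene Lsd-1 fell to 848 ± 96.2 CPM at day 8, against 1498 ± 158 CPM at day 5 (SD, n = 4 each), and changed by -0.82 ± 0.11. The lipase gene bmm had 76.1, 63.7, 81.2 and 88.2 CPM at day 8 and 92.9, 102, 129 and 106 CPM at day 5, a change of -0.48 ± 0.17 whose call held in 2 of the 8 fits with 1 library left out, those without replicate 4 of day 8 or replicate 1 of day 5 (edgeR adjusted p = 0.0446 with all libraries). Hsl, the hormone-sensitive lipase, was the member called higher, by 0.44 ± 0.13, a call that ended without replicate 4 of day 8 (0.36) and without replicates 1 and 2 of day 5. The lipoprotein gene apolpp changed by -0.43 ± 0.12, a call that also ended without replicates 1 and 2 of day 5, and its partner Apoltp by 0.82 ± 0.24, while NLaz, a secreted lipocalin, rose to 33.4 ± 9.38 CPM at day 8, against 5.01 ± 1.78 CPM at day 5, a change of 2.73 ± 0.28.

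Carbohydrate genes were lower at day 8 as well. Of 16 genes of glycolysis and lactate, 13 were called lower and 1 higher, with a median of -0.79, and 12 and 0 without replicates 1 and 2 of day 5. Gapdh2, a glyceraldehyde-3-phosphate dehydrogenase, had 282, 267, 223 and 203 CPM at day 8 and 654, 717, 547 and 630.3 CPM at day 5. The groups were well apart, with a change of -1.39 ± 0.15 (edgeR adjusted p = 6.7e-07). Pyruvate kinase (PyK) changed by -1.49 ± 0.23, phosphofructokinase (Pfk) by -0.82 ± 0.13, triose phosphate isomerase (Tpi) by -1.10 ± 0.14 and glycerol-3-phosphate dehydrogenase (Gpdh1) by -1.51 ± 0.26. The member called higher was Pepck2, a phosphoenolpyruvate carboxykinase that works towards glucose synthesis, with 1279 ± 47.4 CPM at day 8 and 577 ± 108 CPM at day 5 (SD, n = 4 each) and a change of 1.15 ± 0.34, a call that ended without replicates 1 and 2 of day 5 (edgeR adjusted p = 0.124). Lactate dehydrogenase (Ldh) was called at -3.58, but replicate 3 of day 5 held 7.21 CPM against at most 0.659 CPM in the other 3, and the change was -0.97 without it. The call of Ldh also ended without replicate 2 or 3 of day 8.

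Of 13 genes of trehalose and glycogen metabolism, 7 were called lower and 1 higher, with a median of -0.57, and 4 and 0 without replicates 1 and 2 of day 5. Phosphoglucomutase (Pgm1) had 159, 165, 126 and 133 CPM at day 8 and 351, 356, 342 and 351 CPM at day 5, the glycogen branching enzyme AGBE changed by -1.34 ± 0.15, glycogen synthase (Glys) by -0.95 ± 0.18 and glycogen phosphorylase (Glyp) by -0.65 ± 0.10. The sugar sensor gene Mondo changed by -0.89 ± 0.14 and tobi, a glycosidase that responds to sugar and adipokinetic hormone, by -1.90 ± 0.46, a call that ended without those libraries (edgeR adjusted p = 0.0731). Of 18 genes of the tricarboxylic acid cycle and its entry, 10 were called lower and 1 higher, with a median of -0.44, and 5 lower and 2 higher without them. Malate dehydrogenase (Mdh2) and pyruvate carboxylase (PCB) changed by -0.92 ± 0.12 and -0.74 ± 0.10. ScsbetaA, a subunit of succinyl-CoA synthetase, went the other way, with 692, 751, 887 and 934 CPM at day 8 and 324, 311, 351 and 312 CPM at day 5, a change of 1.33 ± 0.11 (edgeR adjusted p = 2.08e-08). ScsbetaG, the other beta subunit gene on the list, changed by -0.60 ± 0.11.

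**Figure D4:**
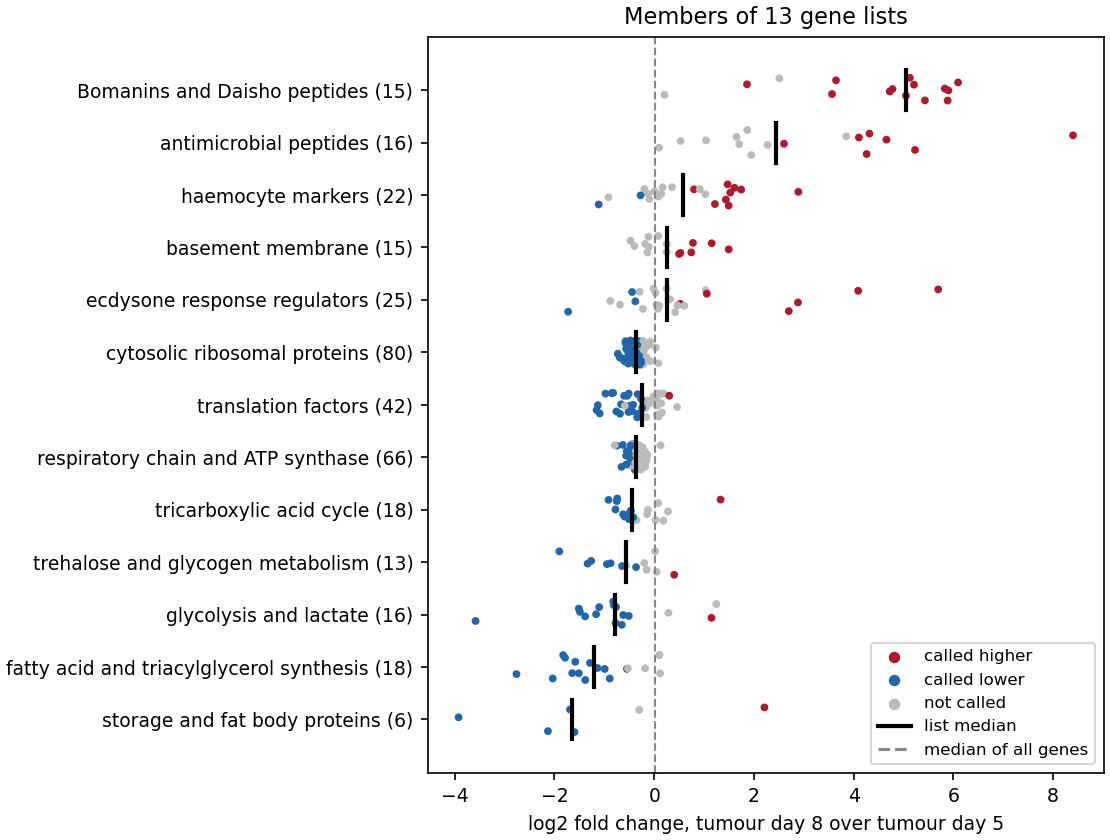
Log2 fold change, tumour day 8 over tumour day 5, of the tested members of 13 gene lists (number tested in brackets), called higher in red, called lower in blue and not called in grey, with the list median as a bar and the median of all genes as a dashed line. The list of Bomanins and Daisho peptides, which also holds Bara genes, has the highest median at 5.05, and the storage proteins the lowest at -1.64.

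Most genes of cytosolic ribosomal proteins were lower by small amounts after scaling. Those of the respiratory chain and of mitochondrial ribosomes had similar medians, with a smaller share called. Changes of this size depend on the TMM factors, which were larger at day 8, and no fit without such scaling was made. Of 80 cytosolic ribosomal protein genes 61 were called lower and none higher, with a median of -0.37. Their changes ran from -0.73 to 0.08, and 24 were called without replicates 1 and 2 of day 5 (median -0.30). RpL7A had 1841, 1799.7, 1522 and 1463 CPM at day 8 and 2635, 3135, 2549 and 2667 CPM at day 5, with no overlap and a change of -0.73 ± 0.10 (edgeR adjusted p = 2.22e-05). RpS3A, RpL10 and RpL10Ab changed by -0.69, -0.65 and -0.59. Of 66 genes of the respiratory chain and ATP synthase 31 were called lower and none higher, with a median of -0.37. Single libraries decided many of these calls, since 10, 17, 13 and 12 remained in number without replicate 1 or 2 of day 5 or replicate 3 or 4 of day 8, and 2 without replicates 1 and 2 of day 5 (median -0.16). COX4, a subunit of cytochrome c oxidase, had 84.7, 86.7, 70.6 and 64.3 CPM at day 8 and 138, 136, 102 and 107 CPM at day 5, a change of -0.66 ± 0.13. The succinate dehydrogenase gene SdhA changed by -0.75 ± 0.15, and its call ended without replicates 1 and 2 of day 5 (edgeR adjusted p = 0.056). Of 70 mitochondrial ribosomal protein genes 13 were called lower and none higher (14.0% of all genes were called lower), with a median of -0.34, and 1 without the 2 libraries. The count was 4, 7, 8 and 4 without the same single libraries.

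Translation factors held a subgroup with larger changes. Of 42 tested 21 were called lower and 1 higher, with a median of -0.25, and 17 and 0 without replicates 1 and 2 of day 5. Counted by symbol over all genes tested, after their values were seen, 12 of 14 subunit genes of initiation factor 3 (13 of them on the list, eIF3g2 not), the complex that brings the small ribosomal subunit to the messenger RNA, were called lower, with a median of -0.75. The gene eIF3a had 318, 305, 280.3 and 280.0 CPM at day 8 and 556, 639, 728 and 711 CPM at day 5, with no overlap and a change of -1.16 ± 0.10 (edgeR adjusted p = 4.77e-08). Its level was 427 ± 60 CPM in tumour day 4, 287 ± 22.1 CPM in tumour day 11 and 335 ± 21.4 CPM in control day 5, so that the tumour day 5 mean was the highest of those named. The genes eIF3g1, eIF3k and eIF3l changed by -1.13, -1.09 and -0.98. Of 23 aminoacyl-tRNA synthetase genes 2 were called lower and none higher (median 0.03), below the shares of all genes. None of 25 ribosome biogenesis genes was called by edgeR (median 0.20), with 2 at an unadjusted p under 0.05 and 1 called lower by DESeq2. Of 33 proteasome subunit genes 6 were called higher and none lower, by small amounts (median 0.12), led by Rpn6 with 155 ± 14.6 CPM at day 8 and 109 ± 5.19 CPM at day 5. That count was 3 without replicate 1 of day 5, replicate 4 of day 5 or replicate 1 of day 8, 3 when the 20 most abundant genes were left out of the scaling, and 1 without replicates 1 and 2 of day 5.

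Ecdysone response genes did not move as 1 block. Of 25 regulators tested, 6 were called higher and 3 lower, with a median of 0.25, and 3 and 3 without replicates 1 and 2 of day 5 (median -0.07) or 3 higher without replicate 4 of day 8. Eip93F (FBgn0264490; chromosome 3R, 21949114 to 22014539), a transcription factor of the late ecdysone response that drives larval tissue breakdown, had 11.6, 14, 22.8 and 32.4 CPM at day 8 and 0.659, 0.0671, 0.207 and 0.546 CPM at day 5. The lowest day 8 library lay far above the highest day 5 library, a change of 5.70 ± 0.46 (edgeR adjusted p = 2.23e-08). Eip78C, a nuclear receptor, had 3.81, 6.46, 9.97 and 13 CPM at day 8 and 0.304, 0.269, 0.674 and 0.656 CPM at day 5, and Hr4, another, 3.43, 4.72, 9.54 and 14.8 CPM at day 8 and 1.37, 1.34, 0.726 and 0.983 CPM at day 5. In all 3 genes replicate 4 was the highest and replicate 1 the lowest of day 8, and the changes of Eip78C and Hr4 were 4.09 ± 0.39 and 2.88 ± 0.46. Control day 5 libraries held 17.6 ± 6.34 CPM of Eip93F, 145 ± 23.9 CPM of Eip78C and 290.3 ± 57.1 CPM of Hr4. E23 changed by 1.05 ± 0.31, a call lost without replicate 1 of day 5 (0.94) or replicate 4 of day 8 (0.80), and Eip75B by 0.52 ± 0.18, a call lost without replicate 3 or 4 of day 8 or replicate 1 or 2 of day 5. MsrA, a methionine sulfoxide reductase gene induced by ecdysone, had 41.2, 70.7, 73.1 and 59.2 CPM at day 8 and 196, 238, 136 and 239 CPM at day 5, a change of -1.73 ± 0.40. Of 10 genes of juvenile hormone response and breakdown 3 were called lower and none higher, led by the epoxide hydrolase gene Jheh1 with -0.83 ± 0.11. That count was 1 without replicate 3 or 4 of day 8, without replicate 1 or 2 of day 5, and without both of the last. Kr-h1, the main juvenile hormone target, was not called (4.15 ± 0.446 CPM at day 8 and 3.09 ± 0.976 CPM at day 5).

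Of 27 genes of the insulin pathway and its antagonists, 4 were called higher and 1 lower, with a median of 0.09, and 2 and 1 without replicates 1 and 2 of day 5. With all libraries these counts were near or below the 12% and 14.0% of all genes. InR, the insulin receptor gene and a target of foxo, had 69.8, 73.9, 82.9 and 90.9 CPM at day 8 and 25.4, 21.6, 37.2 and 34.6 CPM at day 5, with no overlap and a change of 1.42 ± 0.17 (edgeR adjusted p = 3.22e-06). Akt, the kinase downstream of it, had 79.2, 91.3, 116 and 110.4 CPM at day 8 and 40.3, 38.8, 48.3 and 50.1 CPM at day 5, with no overlap, and changed by 1.16 ± 0.12. The gene foxo changed by 0.66 ± 0.14, a call that ended without replicates 1 and 2 of day 5 (edgeR adjusted p = 0.0739), and chrb, an inhibitor of TOR, by -1.45 ± 0.26. ImpL2, the insulin-binding antagonist known to be secreted by fly tumours, was not called in the fat body, with 207, 204, 194 and 256 CPM at day 8 and 262, 345, 188 and 327 CPM at day 5. It was called lower without replicate 3 of day 5 (-0.56) and when the 20 most abundant genes were left out of the scaling (-0.44). Thor, the translation inhibitor 4E-BP and a foxo target, was not called either (601 ± 85.1 CPM at day 8 and 421 ± 26.8 CPM at day 5, edgeR adjusted p = 0.161), although it was called higher in the fit of the 8 libraries alone (0.52). The cytokine gene upd3 and the relaxin-like gene Ilp8 were under the low-count filter, with 12 and 12 counts over the day 8 libraries and 17 and 74 over the day 5 libraries, 72 of the Ilp8 counts in replicate 3. The targeted gene scrib had 32, 35.7, 41.8 and 35.4 CPM at day 8 and 38.3, 34.4, 34.1 and 35.6 CPM at day 5 and was not called, which does not check the labels, since the driver is epithelial and the fat body was sampled.

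Of 18 lysosomal proteases and hydrolases, 5 were called higher and 2 lower, with a median of 0.38, 3 and 2 without replicates 1 and 2 of day 5, and 8 higher without replicate 3 of day 5. The cathepsin L gene CtsL1 rose to 632 ± 103 CPM at day 8, against 268 ± 21.9 CPM at day 5 (SD, n = 4 each), a change of 1.24 ± 0.24, and the cathepsin B gene CtsB changed by 0.80 ± 0.19, a call that ended without replicates 1 and 2 of day 5. CtsK1 and the palmitoyl-thioesterase gene Ppt2 went the other way, by -0.68 ± 0.10 and -1.29 ± 0.17. Of 23 autophagy genes 2 were called higher and 3 lower, shares no larger than the 12% and 14.0% of all genes. The kinase gene Atg1, which starts autophagy, fell to 22 ± 2.93 CPM at day 8, against 51.3 ± 11.5 CPM at day 5, a change of -1.22 ± 0.23, while Atg7, an enzyme of the conjugation step, changed by 0.87 ± 0.18. Hsp23, a small heat shock protein, had 42.2, 154, 157 and 146 CPM at day 8 and 3.45, 0.94, 8.4 and 15.6 CPM at day 5, a change of 4.12 ± 0.69 (edgeR adjusted p = 0.000138), 4.85 without replicate 4 of day 5. It was the only heat shock gene of 19 called.

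Detoxification genes were called in both directions. Of 63 cytochrome P450 genes, 14 were called higher and 14 lower, with a median of 0.18, and 13 and 5 without replicates 1 and 2 of day 5, while 9 were called lower without replicate 2 of day 5 alone. Cyp4aa1 had 9.08, 11.9, 20 and 27.5 CPM at day 8 and 0.405, 0.806, 0.467 and 0.546 CPM at day 5, with no overlap and a change of 4.96 ± 0.41 (edgeR adjusted p = 2.58e-08). Cyp309a1, Cyp6a8 and Cyp6a13 changed by 2.98, 1.85 and 1.56, and Cyp4e3 by 1.89 ± 0.34 to 1288 ± 284 CPM at day 8, against 347 ± 74.3 CPM at day 5. Cyp9b2 and Cyp12d1-p fell by 1.05 and 1.25 on the log2 scale. Of 30 glutathione S-transferase genes 12 were called lower and 1 higher, with a median of -0.52, and 10 and 1 without those libraries. GstD1 had 91.1, 93.7, 70.6 and 74 CPM at day 8 and 123, 208, 151 and 172 CPM at day 5, a change of -0.99 ± 0.21. Of 20 UDP-glycosyltransferase genes 9 were called lower and 1 higher, with a median of -0.55, and 4 and 0 without them. Of 18 genes of oxidative stress defence 10 were called lower and none higher, with a median of -0.36, and 3 and 0 without them. Prx2, a peroxiredoxin gene, changed by -1.52 ± 0.29.

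The libraries of a day differed among themselves, and in a shared direction. Over the 2270 called genes, replicate 4 of day 8 lay farthest from the day 5 mean in 1151 (50.7%) and replicate 1 of day 8 nearest in 1079 (47.5%). Replicate 3 of day 5 lay nearest to the day 8 mean in 1094 (48.2%) of them. The first principal component of the 8 libraries, which held 44.5% of the variance, gave the day 8 libraries scores of -45.2 to -20.7 and the day 5 libraries 5.61 to 52.2, replicate 3 being the lowest of day 5. What sets these libraries apart was not tested.

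Levels in the other tumour groups place the change on a longer course. Drs averaged 24.1 ± 22.4 CPM at day 4, 72.5 ± 30.7 CPM at day 5, 1249 ± 384 CPM at day 8 and 2362 ± 611 CPM at day 11 (SD, n = 4 each). FASN1 averaged 5744 ± 1168, 4854 ± 666, 715 ± 157 and 506 ± 134 CPM on the same days, so that its day 11 level lay near that of day 8. Hml went on to 253 ± 48.7 CPM at day 11. Fbp1 stood at 363 ± 169 CPM at day 4 and 6497 ± 2204 CPM at day 11, with 44667 ± 31414 CPM in control day 4 and 270983 ± 21839 CPM in control day 5, and Hsp23 at 6391 ± 1276 CPM in control day 5. The day 8 level of Fbp1 and of Hsp23 lay far below that of control day 5, while that of Eip93F lay close to it. Genes of fatty acid and triacylglycerol synthesis summed to 5654 ± 583 CPM at tumour day 8. In control days 4 and 5 they summed to 12003 ± 3256 and 4713 ± 679 CPM. For glycolysis and lactate these sums were 5657 ± 500 CPM, and 12002 ± 993 and 6203 ± 198 CPM. Storage and fat body proteins summed to 109841 ± 33678 CPM at tumour day 8 and 464086 ± 16414 CPM in control day 5. These side values were not tested here.

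**Figure D5:**
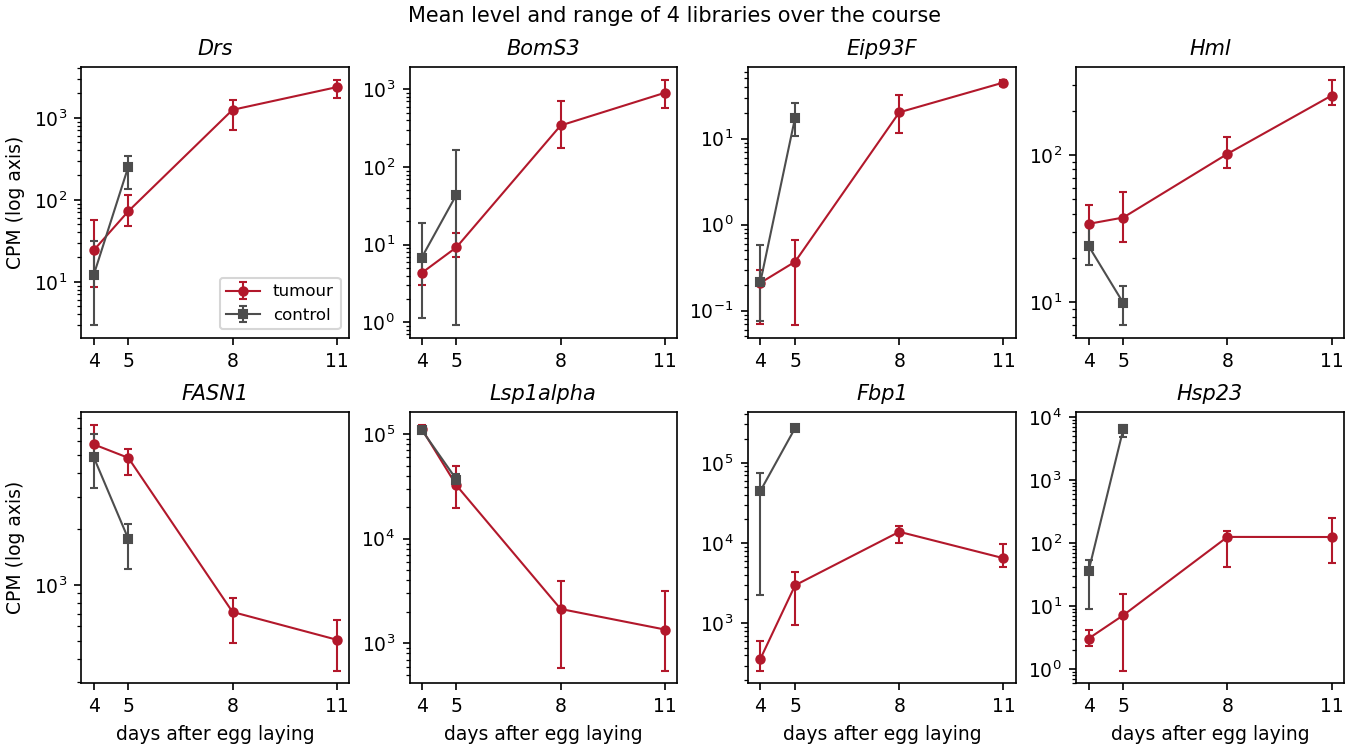
Mean level (CPM, log axis) of 8 genes at days 4, 5, 8 and 11 in tumour groups (red circles) and at days 4 and 5 in control groups (grey squares), with bars for the range of 4 libraries. Drs, BomS3, Eip93F and Hml are higher at day 8 than at day 5 in tumour groups, FASN1 and Lsp1alpha lower, and Fbp1 and Hsp23 reach their highest levels in control day 5.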

How the data were processed

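RNA-seq libraries of dissected larval fat body were read as 1 table of counts per gene, 24 libraries in 6 groups of 4, which the authors deposited unnormalised. Reads were aligned with STAR 2.5.4a to BDGP6, per the submitters' processing notes, and neither the counter nor its strand setting is named there. Columns were matched to samples by their labelled names, and gene names and positions came from the BDGP6.54 annotation (17560 of 17698 identifiers had a symbol).

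In edgeR 4.0.16 (R 4.3.3, limma 3.58.1), genes were filtered with filterByExpr, scaled with TMM factors and fitted with 1 mean per group over all 24 libraries, so that the groups share 1 estimate of the spread. Tumour day 8 was tested against tumour day 5 with robust glmQLFit and glmQLFTest and Benjamini-Hochberg adjustment over 8707 genes. Standard errors were the change divided by the square root of F. The fit was tested on simulated data, where it called 25.8% of 1.5-fold, 58.2% of 2-fold and 84.8% of 4-fold changes and 0.036% of unchanged genes. A gene that was not called may therefore still have changed. The simulation changed 62, 67 and 66 genes by those folds among 8482 tested, with all other genes equal in every group. It held no RNA of other tissues in single libraries, so that these shares may not hold for the data. Tables and figures were made in Python 3.11.15 with pandas 2.3.3 and scipy 1.17.1, and exact 95% intervals of count ratios cover counting error only.

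The text names the 12 largest changes in each direction among called genes of at least 20 CPM, with no overlap and also called without 2 doubted day 5 libraries, up to 4 called members per list by p, and 18 genes of interest. A further 32 were named after their values were seen. Members and gene lists were chosen with earlier results of these data known. Alternatives were RLE scaling, scaling without the 20 most abundant genes, no filter, other sets of libraries, a replicate block, a 1.5-fold threshold, DESeq2 1.42.0 and leaving out each library.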

Additional observations from a re-analysis of the deposited data

Results flagged for a closer look

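In 492 groups of 4 libraries, 35 had a highest or lowest library far from the other 3 by Dixon's test, for which chance flags about 1 in 20. Replicate 2 of day 8 stood above the other day 8 libraries in immune peptide genes, with 469 CPM of DptA, 169 CPM of Dro, 703 CPM of BomS3, 83.0 CPM of BomS1, 3.40 CPM of BomT1 and 39.1 CPM of Def. Replicate 4 of day 8 was the highest of its group for spz (24.2 CPM), Socs36E (96.5 CPM), dl (81.4 CPM), ras (132 CPM), Gal (3.88 CPM) and CG7227 (1.71 CPM). Replicate 1 of day 8 had 364 CPM of gut markers, 204 CPM of salivary gland markers, 24.9 CPM of Tina-1, 5.91 CPM of GstE11 and, as the lowest, 42.2 CPM of Hsp23. Replicate 3 of day 8 had the lowest level of JhI-26 (1.98 CPM).

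At day 5, replicate 1 had 699 CPM of testis markers and 3.50 CPM of CG14963, the highest of its group, and the lowest of CG10962 (910.4 CPM) and Lsp2 (5159 CPM). Men in that replicate stood apart with 2089 CPM. Replicate 2 of day 5 was apart with 1695 CPM of RpS3A, 80.8 CPM of Hnf4, 15.1 CPM of Sr-CI, 593 CPM of Got2 and 159 CPM summed over the 5 sex marker genes, the lowest of its group. Replicate 3 of day 5 had 59.4 CPM of cuticle markers, 85.2 CPM of trachea markers, 14.2 CPM of BomS3, 7.21 CPM of Ldh, 3.73 CPM of Ilp8 and, as the lowest, 9.38 CPM of mRpL9. Replicate 4 of day 5 held the only Drsl5 reads of day 5 (0.109 CPM). What sets these libraries apart was not tested.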

How the results depend on the processing

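Of 9109 genes tested without replicates 1 and 2 of day 5, a choice made after seeing the data because the planned rule picked 1 library, 1193 were called (526 higher, 667 lower), and 1145 (511 and 634) when replicate 1 of day 8 was left out as well. At a 1.5-fold threshold 531 were called (320 and 211). With 1 library left out, the count ran from 1676 without replicate 4 of day 8 to 2458 without replicate 3 of day 5, 773 to 1091 of them higher and 903 to 1367 lower. RLE scaling gave 2258 calls, DESeq2 2518, no filter 2017, the 8 libraries alone 2366 and the 16 tumour libraries 2356. Scaling without the 20 most abundant genes shifted the median of all genes by -0.06 and gave 904 higher and 1475 lower calls, against 1047 and 1223. Day 8 and day 5 libraries with the same replicate number did not vary together (correlations of 0.03, -0.10, 0.31 and 0.02 for numbers 1 to 4), and not every library correlated best with its own number. A replicate block gave 2233 calls (1045 and 1188). The change of scrib, 0.02, was -0.031 under scaling without the 20 most abundant genes and ran from -0.052 to 0.079 with 1 library left out, below 0 without replicate 3 of day 8 (-0.052) or of day 5 (-0.017). The genes upd3 and Ilp8 had too few counts to be tested at this depth.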

Other observations

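Scavenger receptors of the CD36 family, which take up lipids and carotenoids, had 9 tested members, 4 called higher and none lower (median 0.46), and 3 without replicates 1 and 2 of day 5. CG3829 had 303, 315, 362 and 424 CPM at day 8 and 153, 141, 206 and 158 CPM at day 5, with no overlap and a change of 1.09 ± 0.14 (edgeR adjusted p = 5.98e-06). The carotenoid receptor gene santa-maria held 1620 counts at day 8 and 3 at day 5, a ratio of 415 with a 95% counting interval of 142 to 2014, and stood at 578 ± 164 CPM in control day 5. Of 17 serpins, inhibitors of proteases, 4 were called higher and 3 lower. Spn42Dd had 33.4, 42.1, 50.2 and 49.8 CPM at day 8 and 5.93, 9.13, 10.6 and 10.6 CPM at day 5, a change of 2.27 ± 0.28, while Spn27A, an inhibitor of Toll activation and melanisation, changed by -0.50 ± 0.11. Of 9 odorant-binding protein genes, 2 were called in each direction, and 1 higher without replicate 3 of day 5. Obp99b fell to 4817 ± 1909.9 CPM at day 8, against 20464 ± 2574 CPM at day 5 (SD, n = 4 each), a change of -2.09 ± 0.24.

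Single genes of amino acid and nucleotide metabolism were called in both directions. Gnmt, a glycine methyltransferase that uses up S-adenosylmethionine, had 405, 313, 239 and 190.3 CPM at day 8 and 1383, 1537, 1296 and 1514 CPM at day 5, a change of -2.32 ± 0.30 (edgeR adjusted p = 5.88e-06), and Sam-S, which makes that molecule, changed by -0.84 ± 0.17. The groups did not overlap for either gene. Glutamine synthetase 2 (Gs2) had 16.2, 24.9, 20 and 42.8 CPM at day 8 and 2.74, 1.14, 5.65 and 1.64 CPM at day 5, a change of 3.20 ± 0.58. The amino acid transporter gene Pat1 changed by 1.37 ± 0.16. Of 14 purine genes 3 were called higher and none lower, and 1 without replicates 1 and 2 of day 5, when the call of Gart (1.52 ± 0.41), an enzyme of purine synthesis, ended. Of 37 genes of DNA replication and the endocycle, 5 were called higher and 2 lower, near or below the 12% and 14.0% of all genes, with 10 higher without replicate 3 of day 5, 3 without replicate 1 and 2 without replicate 4. RnrS, a ribonucleotide reductase subunit, changed by 2.53 ± 0.28, and the replication factor gene Psf2 by -1.44 ± 0.18.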
